A study of Mus musculus with 4 samples.

Results

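RNAs other than miRNA were compared for their distribution between RAW264.7 cells, a mouse macrophage-like line, and the extracellular vesicles that these cells released. The cells carried a short hairpin RNA that is switched on by doxycycline, either the control hairpin shNS or shDis3l2, which is directed against Dis3l2. All 4 groups were given doxycycline at 1 µg per mL for 3 days, and vesicles were then collected for 24 h in medium with vesicle-depleted serum, floated on sucrose and treated with micrococcal nuclease. Cells and vesicles under each hairpin gave 1 small-RNA library apiece, so no difference below has a replicate check and no p-value was computed. For every gene the export ratio is the level in vesicles over the level in cells, and the export shift is the log2 export ratio with the label shDis3l2 minus that with the label shNS. A shift below 0 means that the RNA lay further towards the cells in the libraries labelled shDis3l2. Genes were taken when they had at least 100 counts in cells and at least 100 in vesicles, summed over both hairpins, and miRNA-typed transcripts were left out. This gave 2331 of the 52093 annotated genes outside miRNA in the table. Of the others, 723 reached 100 counts in cells alone and 5747 in vesicles alone.

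Vesicles carry mostly short RNAs of the cytoplasm, among them tRNAs, Y RNAs, vault RNAs and fragments of mRNA and rRNA. Small nucleolar RNAs (snoRNAs), which guide the modification of rRNA, and small nuclear RNAs (snRNAs), which form the spliceosome, work in the nucleus. Dis3l2 is a cytoplasmic exonuclease that degrades RNAs with a tail of uridines from the 3′ end, and its known targets include precursors of let-7 and structured noncoding RNAs such as snRNAs and Y RNAs.

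Total counts ranged from 17612856 to 19741041 per library, of which the 2331 genes took 24.7% (shNS) and 30.4% (shDis3l2) in cells, and 33.9% and 40.1% in vesicles. Levels are given as CPM, the usual unit of counts relative to all counts of a library, here with miRNA and tRNA included, and a gene at 0 could have up to 0.152 to 0.170 CPM, which is 3 counts in a library. Intervals are 95% intervals on the log scale and, like the floor, cover counting error only. Counts on the targeted gene went against the label in cells, as its values below show, so each library is named by its label. These are counts of small-RNA reads, and whether they follow the level of Dis3l2 mRNA, and so the knockdown, was not tested. With 1 library per group no export shift, and no label ratio in cells, can be given without the cell library labelled shDis3l2. The summed level of 7 macrophage markers was 26.9 and 28.9 CPM in cells and 205 and 178 CPM in vesicles, and Itgam was at 0 in the cell library labelled shNS. The 7 erythroid and platelet markers summed to between 0.404 and 10.0 CPM, with Hba-a1 and Hbb-bt at 0 in all libraries, and 10 epithelial, fibroblast and endothelial markers to between 6.64 and 8.26 CPM. The part of other cell types in the results was not tested. In bulk libraries, a different number of cells or vesicles of a kind and a different amount of RNA in each cannot be told apart.

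Export ratios under the hairpins resembled each other over most RNAs. Across the 2331 genes, which are not replicates, the log2 export ratios with the labels shNS and shDis3l2 had a Pearson correlation of 0.92 and a Spearman correlation of 0.90, from ratios that share no library but are both scaled to all features. The ratio lay on the same side of 1 under both labels for 89.7% of genes. The median log2 export ratio was 1.41 with the label shNS and 1.63 with shDis3l2, both on the vesicle side. The median shift was 0.08, with quartiles at -0.51 and 0.62 and a typical interval of 0.50 to either side. In the 2327 genes with counts in all libraries it ran from -8.22 for Dis3l2 to 4.86 for Trpm1.

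**Figure D1:**
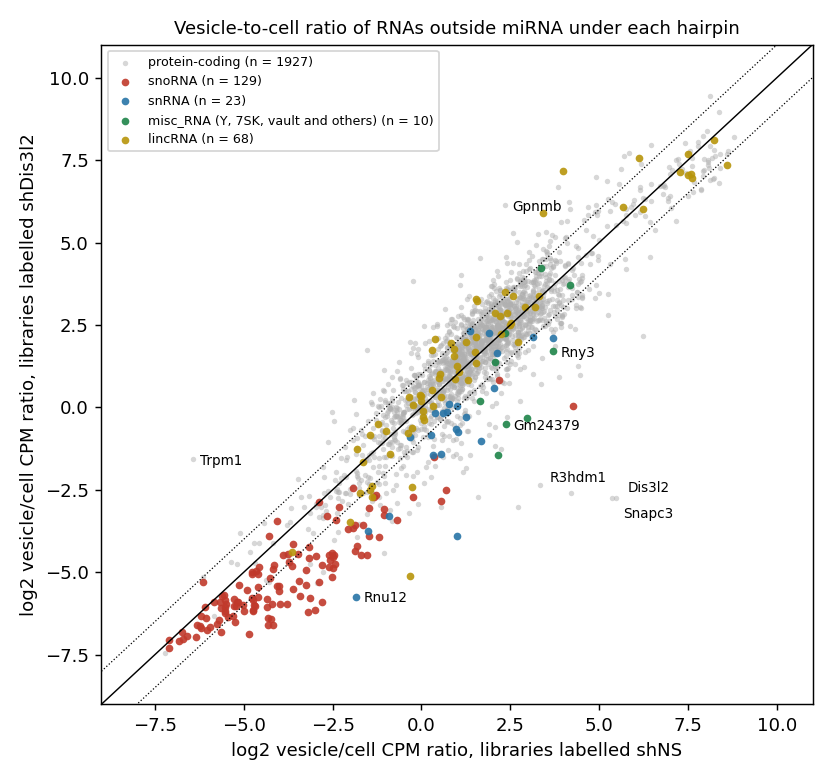
Log2 ratio of vesicle to cell CPM with the label shNS (horizontal) and shDis3l2 (vertical) for the members of 5 annotated classes. The solid line marks equal ratios and the dotted lines a 2-fold shift; most snoRNAs lie below the solid line, and Dis3l2, Snapc3 and R3hdm1 lie far below it on the vesicle side of the horizontal axis.

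A shift of at least 2-fold whose interval excluded 0 was found upwards, towards vesicles, for 291 genes (12.5%) and downwards, towards cells, for 317 genes (13.6%). Over all 2624 features that passed the count minimum, miRNA hairpins and tRNAs included, the shares were 11.9% and 14.3%. This balance depended on the scale of the libraries. TMM factors gave 184 up and 410 down. The size factors of DESeq2 gave 218 and 375, and scaling to counts outside miRNA gave 399 and 271. These scales move every shift by -0.21, by -0.14 and by 0.14, so the median over all genes became -0.13, -0.06 and 0.23. Directions of single genes below are therefore relative to the chosen scale by that amount.

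The genes shifted in each direction differed in the compartment that carried the difference. The label ratio, shDis3l2 over shNS, was at least 2-fold higher in cells for 331 genes (14.2%) and at least 2-fold lower for 77 (3.3%). In vesicles it was at least 2-fold higher for 179 genes (7.68%) and lower for 71 (3.05%). Over all features that passed the minimum these shares were 13.4% and 3.85% in cells and 7.36% and 4.8% in vesicles. Of the 317 genes shifted towards cells, 200 reached 2-fold in the direction of the shift in cells alone (higher with the label shDis3l2), 33 in vesicles alone (lower), 18 in both and 66 in neither. Of the 291 shifted towards vesicles, 92 reached it in vesicles alone (higher), 55 in cells alone (lower), 5 in both and 139 in neither. By number of genes the shift towards cells thus sat mostly in the cell libraries, and that towards vesicles was more often made up of smaller differences. The shift subtracts the label ratio in cells from that in vesicles, so such differences are in part built into the choice. Of 187 protein-coding genes shifted towards cells, 137 reached 2-fold in cells alone, 14 in vesicles alone, 0 in both and 36 in neither. For 72 snoRNAs these counts were 32, 9, 12 and 19. The export ratio was at least 2-fold on opposite sides of 1 under the labels in 21 genes (0.901%, against 0.915% of all features), 18 of them going from the vesicle side to the cell side.

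**Figure D2:**
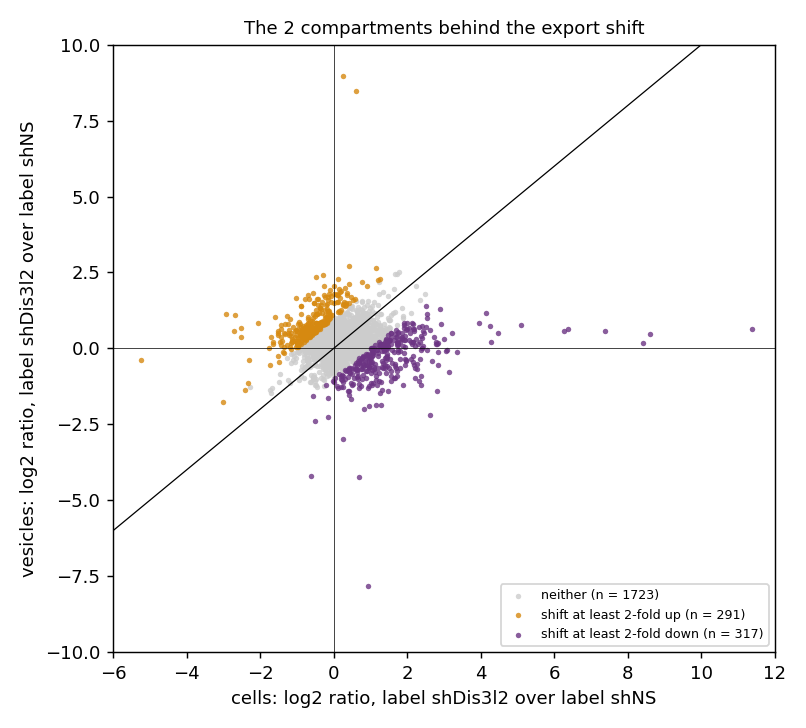
Log2 ratio of the label shDis3l2 over shNS in cells (horizontal) and in vesicles (vertical) for each of the 2331 genes, coloured by the call on the export shift. Genes shifted down lie below the diagonal and spread furthest to the right, along the cell axis, while genes shifted up lie above it; the 2 highest and the lowest points, and the one furthest right, are the genes with a library at 0.

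Classes of short nuclear RNA lay towards cells at the median. The 129 snoRNA members (of 1364 annotated snoRNA genes in the table) had a median shift of -1.17, with 72 at least 2-fold down and 0 up. The 23 snRNA members had a median of -1.43, with 14 down and 0 up, and the 5 small Cajal body RNAs (scaRNAs), which guide snRNA modification, a median of -2.14 with 4 down. The lowest scaRNA shift and the lower quartile were both -2.62, so more than 1 gene had this value. Reads of near-identical or overlapping copies could have been split between such genes, which may then not be separate RNAs. With overlapping genes summed the scaRNA median was -1.12, beside -1.24 for snoRNAs and -1.43 for snRNAs, so the order of these classes depended on that choice. The 1927 protein-coding genes had a median of 0.15, with 256 up and 187 down, and 68 long intergenic noncoding RNAs one of 0.12, with 9 up and 6 down. Shares of 12.5% up and 13.6% down over all members stand beside these counts. Medians of the other classes were -1.07 for 10 RNAs typed miscellaneous (1 up, 5 down), -0.38 for 12 mitochondrial tRNAs (0 up, 2 down), -0.06 for 7 rRNA genes, -0.17 for 29 processed transcripts, 0.10 for 47 unconfirmed transcripts, 0.22 for 28 antisense genes and 0.21 for 22 processed pseudogenes. For comparison, 166 miRNA hairpins had a median of -0.59, with 5 up and 33 down, and 120 tRNA features one of -0.28.

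**Figure D3:**
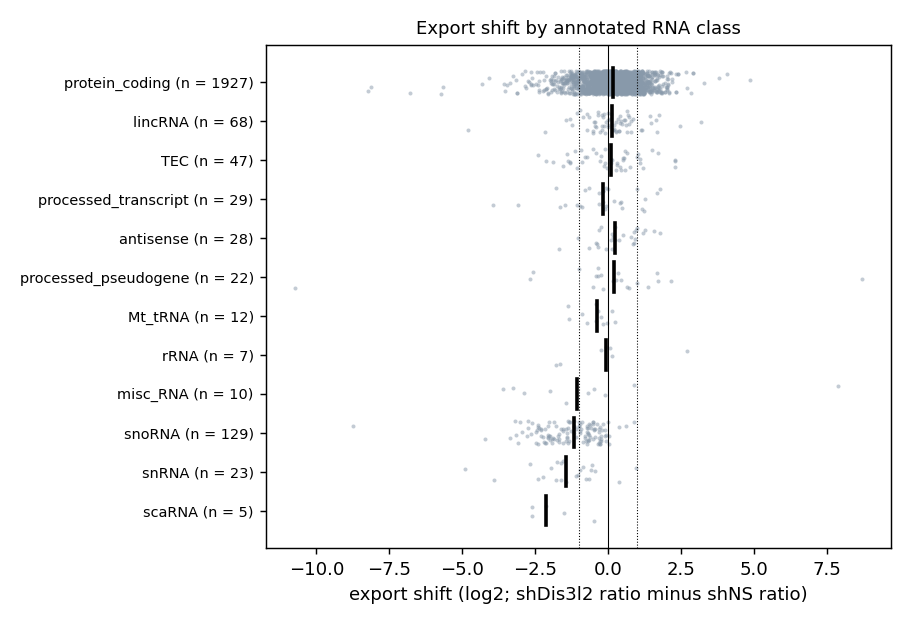
Export shift of each gene (points) and the median (bar) by annotated class, with the number of genes. snoRNA, snRNA, scaRNA and misc_RNA medians lie below -1 (dotted line), and the protein-coding median lies at 0.15. The 4 points beyond the others belong to genes with a library at 0, whose shifts rest on the pseudocount.

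Among the listed snRNA genes, the pair of the minor spliceosome, which removes a rare class of introns, stood lowest. Rnu12, the U12 snRNA (GRCm38, chr15:83149644-83149794, plus strand), had 84.6 and 748 CPM in cells and 23.6 and 13.9 CPM in vesicles, with the labels shNS and shDis3l2 in that order. The cell library labelled shDis3l2 was thus the highest and the vesicle library of the same label the lowest, and the shift was -3.91 (interval -4.14 to -3.67). Rnu11, the U11 snRNA (chr4:132270080-132270213, minus strand), had 12.8 and 65.6 CPM in cells and 40.9 and 32.4 CPM in vesicles. Its vesicles held more than its cells with the label shNS and less with the label shDis3l2, a shift of -2.69. Both sequences, from GENCODE M21 transcripts, are shown because these RNAs had the lowest shifts among the listed snRNA genes. Letters resembling the uridine-rich site where Sm proteins bind are in capitals.
Rnu12: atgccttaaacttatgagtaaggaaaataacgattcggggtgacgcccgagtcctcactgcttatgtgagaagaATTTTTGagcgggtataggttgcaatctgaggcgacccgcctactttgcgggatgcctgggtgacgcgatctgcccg
Rnu11: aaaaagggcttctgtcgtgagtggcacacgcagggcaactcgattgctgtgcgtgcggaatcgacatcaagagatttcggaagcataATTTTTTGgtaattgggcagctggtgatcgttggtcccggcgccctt

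The capitals are a match to ATTTNTG or ATTTTTTG, letters chosen after these sequences were read. One of these motifs was present in 18 of the 23 snRNA members (78.3%) and in 21.7% of 1383 annotated snRNA transcripts. On the opposite strand 0 members and 181 of those transcripts held one. Members with the letters had a median shift of -1.49 and the 5 without them one of -1.02. Such a match is a description of the letters.

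The other listed snRNA genes shifted less than U11 and U12. Of those not listed, Gm22126 shifted more, as given below, and Gm24265 and Gm24407, of 141 nt, had shifts of -2.40 and -2.25. Rnu1a1, a U1 gene whose RNA recognises 5′ splice sites, had 396 and 1083 CPM in cells and 497 and 401 CPM in vesicles, a shift of -1.76. Rnu7, which guides the 3′ end formation of histone mRNA, had 408 and 546 CPM in cells and 597 and 205 CPM in vesicles. Its shift of -1.96 lay mostly in the vesicle libraries, in contrast to U11, U12 and U1, where the cell libraries differed more. The U5 gene Rnu5g had a shift of -0.85, with 59.1 and 98.8 CPM in cells and 96.7 and 89.5 CPM in vesicles. The list of genes with an Rnu symbol, which mixes snRNAs with the snoRNA genes Rnu3a, Rnu3b1 and Rnu73b, had 8 measured members, a median shift of -2.01 and 6 at least 2-fold down. Its 3 snoRNA genes are also counted among the snoRNA members below. Rnu3b1 and Rnu3a, which encode the U3 RNA of pre-rRNA processing, had shifts of -2.39 and -2.06, and Rnu73b one of -0.65. The 5 annotated snRNA genes of 191 nt gave shifts from -1.61 for Gm23472 to 0.95 for Gm26316, and reads of near-identical copies could have been split between such genes. Gm22126, an snRNA-typed gene of 142 nt, had 7.61 and 12.3 CPM in cells and 15.3 and 0.788 CPM in vesicles, and its shift of -4.92 lay mostly in the low vesicle library labelled shDis3l2.

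Most snoRNAs lay on the cell side under both labels and further towards it with the label shDis3l2. The median log2 export ratio of the 129 members was -4.17 with the label shNS and -5.45 with shDis3l2, and 124 of them had a shift below 0. Both compartments took part. The label ratio was above 1 in cells for 106 and below 1 in vesicles for 119, and 100 showed both, with medians of 0.50 in cells and -0.60 in vesicles on the log2 scale. In protein-coding genes 225 of 1927 showed both.

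Box C/D snoRNAs guide the methylation of ribose and box H/ACA snoRNAs the conversion of uridine to pseudouridine. Of the listed C/D snoRNAs 54 were measured, with a median shift of -1.09, 28 down and 0 up. Snord14c, Snord14d and Snord14e, which lie within Hspa8, had shifts of -2.75, -2.30 and -2.42. Snord118, the U8 RNA of large-subunit rRNA processing, had 527 and 1283 CPM in cells and 94.1 and 44.1 CPM in vesicles, a shift of -2.37. At the other end Gm23212 (chr1:161036682-161036741, plus strand), the most abundant snoRNA and one of those inside Gas5, had 22555 and 22081 CPM in cells and 329 and 332 CPM in vesicles. Its levels hardly differed between labels in either compartment, and its shift was 0.04 (-0.01 to 0.09). This value turned to -0.17 on the TMM scale, to -0.096 on that of DESeq2 and to -0.42 when overlapping genes were summed. The sequence of Gm23212 is shown as that of the most abundant member, with the box C letters TGATGA and the box D letters CTGA in capitals.
Gm23212: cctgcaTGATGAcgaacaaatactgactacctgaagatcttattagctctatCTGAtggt

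Letters were searched on the RNA strand, with TGATGA in the first 25 nt and CTGA in the last 20 nt, or ACA in the last 6 nt. The C and D letters were found in 73 members (56.6%) and 20.6% of 1507 annotated snoRNA transcripts, and ACA without them in 21 members (16.3%) and 45% of transcripts. Members with ACA letters had a median shift of -1.87, with 17 of 21 down, those with C and D letters one of -0.96, with 34 of 73 down, and the 35 with neither one of -1.16, with 21 down. Length differed along with this. The 95 snoRNAs shorter than 100 nt had a median of -0.86 and the 27 from 100 to 200 nt one of -1.92, with 25 down. Across the 129 members, which are not replicates, the Spearman correlation of the shift with length was -0.52 and with GC content -0.40. Whether box class, length or GC content carries the difference was not tested.

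Named H/ACA RNAs and scaRNAs followed the class. Of 7 measured H/ACA members 6 were down, with a list median of -1.57. Snora21 had 76.3 and 255 CPM in cells and 12.6 and 11.5 CPM in vesicles, a shift of -1.87 from the cell libraries. Snora31 was the exception, with 68.9 and 75.6 CPM in cells, 9.40 and 10.3 CPM in vesicles and a shift whose interval ran from -0.32 to 0.32. The listed Cajal body RNAs had 4 measured members with a median of -1.83 and 3 down, from Scarna10 at -2.49 to Scarna2 at -0.47.

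Y RNAs are short products of RNA polymerase III bound by the Ro protein, and they split. Rny3 (chr6:47781624-47781725, plus strand) had 806 and 3554 CPM in cells and 10541 and 11587 CPM in vesicles. Its vesicle levels were close and its cell level was higher with the label shDis3l2, a shift of -2.0 (-2.03 to -1.98). Rny1 (chr6:47788069-47788180, minus strand) had 1587 and 1398 CPM in cells and 8151 and 6615 CPM in vesicles, and a shift of -0.12 (-0.14 to -0.09). Gm24379 (chr2:158487602-158487687, plus strand) is typed as miscellaneous RNA and had 3991 and 11146 CPM in cells and 20580 and 7809 CPM in vesicles. It was higher in vesicles than in cells with the label shNS and lower with shDis3l2, a shift of -2.88 (-2.89 to -2.87). The 3 RNAs are printed to show what they share. Capitals mark the longest run common to Rny1 and Gm24379, of 24 nt, and in Rny3 the longest run shared with Rny1, of 12 nt.
Rny3: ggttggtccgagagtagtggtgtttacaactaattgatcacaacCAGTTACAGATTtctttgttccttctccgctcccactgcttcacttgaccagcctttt
Rny1: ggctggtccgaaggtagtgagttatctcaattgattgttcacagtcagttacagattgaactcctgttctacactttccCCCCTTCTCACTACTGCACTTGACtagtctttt
Gm24379: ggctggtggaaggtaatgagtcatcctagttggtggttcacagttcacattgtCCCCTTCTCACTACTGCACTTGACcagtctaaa

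A read inside the 24 nt run cannot be assigned to Rny1 or Gm24379 by its letters, so the division between them is uncertain. Their counting intervals did not overlap, but these intervals do not cover the uncertain division of reads. The other structured RNAs made by RNA polymerase III or held in RNPs moved less than Rny3. Rn7s1, a 7SL gene whose RNA is the scaffold for signal recognition, had 295 and 249 CPM in cells and 3055 and 4694 CPM in vesicles, a shift of 0.87. Rpph1, the RNA of RNase P, had a shift of 0.99, also towards vesicles, and Rmrp, the RNA of RNase MRP, one of -0.06. Vaultrc5, a vault RNA, stood at -0.47 and Rn7sk, the RNA that restrains the elongation factor P-TEFb, at -0.69. Of the 7 measured members of this list 1, Rny3, was down and 0 were up, with a median of -0.12, which was 0.03 when scaled to counts outside miRNA.

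Ribosomal and mitochondrial RNAs were closer to the overall median. The 5.8S rRNA gene n-R5-8s1, with 10933 and 13535 CPM in cells and 3978 and 4720 CPM in vesicles, had a shift of -0.06, and CT010467.1, an rRNA-typed gene, one of 0.12. Scaling to counts outside miRNA turned the first to 0.08, and the TMM and DESeq2 scales turned the other to -0.08 and -0.01. The 5S genes were divided, with n-R5s112 at -1.79, n-R5s106 at -1.65, n-R5s102 at 0.06 and n-R5s2 at 2.69, and near-identical copies make these splits uncertain. Mitochondrial tRNAs lay far on the cell side, with median log2 export ratios of -5.34 and -5.49. Among them mt-Tq, the tRNA for glutamine, had 291 and 902 CPM in cells and 5.12 and 6.19 CPM in vesicles, a shift of -1.36, and mt-Tv, the tRNA for valine, had one of -1.34. The mitochondrial rRNAs stood at -0.61 for mt-Rnr1 and 0.26 for mt-Rnr2, and the mRNAs mt-Co1, mt-Co2 and mt-Co3 at -0.04, -1.02 and -0.86.

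Genes whose exons hold snoRNAs were also shifted towards cells at the median. Many snoRNAs are cut from introns of ribosomal protein genes, translation factor genes and noncoding host genes, and retained introns place them in annotated exons. The 65 members whose exon shared at least 15 nt with a snoRNA or scaRNA gene on the same strand had a median shift of -1.22, with 35 down and 1 up. Of the listed snoRNA host genes 19 were measured, with a median of -1.38, 11 down and 2 up. Snhg5, a noncoding host, had 19.6 and 126 CPM in cells and 5.98 and 4.48 CPM in vesicles, a shift of -3.10. Ncl, which encodes nucleolin, had 25.2 and 134 CPM in cells and 49.5 and 49.7 CPM in vesicles, a shift of -2.40. Gas5 had a shift of -1.07 and the host Snhg14 one of 1.26. A read of a snoRNA can be assigned to its own gene or to the host exon around it, so the counts of hosts and guests are not independent. When such genes were summed with what they overlap, the median of the listed hosts became -0.74. The 3 listed hosts that share no exon with a snoRNA gene had shifts from -1.38 to 1.16 and a median of -0.87.

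Ribosomal protein genes lay below the overall median. The large-subunit genes had a median shift of -0.63 over 33 members, with 10 down and 1 up, and the small-subunit genes one of -0.58 over 22, with 6 down and 0 up. Their level was higher in the cell library labelled shDis3l2 than in that labelled shNS for 51 of the 55. Of all 1927 protein-coding members this held for 1123. The 22 whose exon shares sequence with a snoRNA had a median of -1.03, with 11 down, and the 33 others one of -0.58, with 5 down and 1 up. Rpl23a, which holds Snord42b, had 1.13 and 11.9 CPM in cells and 25.6 and 23.7 CPM in vesicles, a shift of -3.47. Rps3, which holds Snord15b, had 38.7 and 204 CPM in cells and 65.5 and 83.3 CPM in vesicles, a shift of -2.05. Rps7, with no annotated snoRNA in an exon, had 1.47 and 4.94 CPM in cells and 47.3 and 54.7 CPM in vesicles, a shift of -1.52. In these 3 genes the cell libraries differed and the vesicle libraries were close. Rpl41 was shifted towards vesicles, by 1.21.

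**Figure D4:**
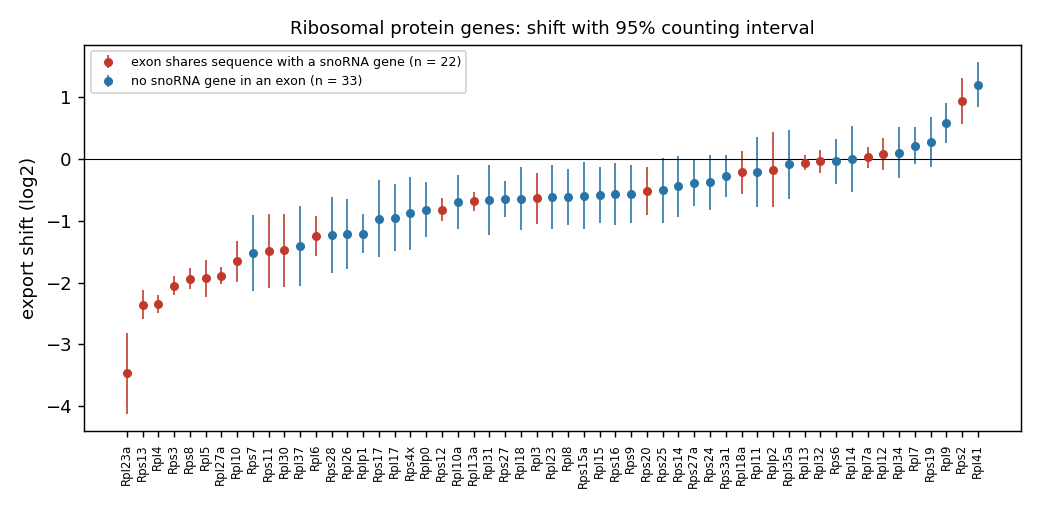
Export shift of 55 ribosomal protein genes with 95% counting intervals, coloured by whether an exon shares at least 15 nt with a snoRNA gene. Genes with such an exon hold the 8 lowest places, from Rpl23a to Rpl10, and also reach the right end, where Rps2 stands next to Rpl41.

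Among single mRNA-type genes, the lowest shifts came from a set with a very high level in 1 library. Dis3l2 itself (chr1:86703808-87050095, plus strand) had 2.08 and 718 CPM in cells and 94.2 and 108 CPM in vesicles. Its counts lay on the vesicle side with the label shNS and on the cell side with the label shDis3l2, a shift of -8.22 (-8.67 to -7.77). Snapc3, a subunit of the complex that starts snRNA transcription, had 2.18 and 858 CPM in cells and 91.0 and 127 CPM in vesicles, a shift of -8.12. R3hdm1, which encodes a protein with an R3H nucleic acid binding domain, had 5.51 and 923 CPM in cells and 103 and 154 CPM in vesicles, a shift of -6.80. In all of these the cell library labelled shDis3l2 was the highest and the cell library labelled shNS the lowest. Sema7a, a semaphorin of the cell surface, Lmbrd1, a lysosomal cobalamin transporter, and Phex, an endopeptidase of phosphate balance, shared this order, with shifts of -5.73, -5.67 and -4.32. The processed pseudogene Gm9287 had 0 CPM and 66.7 CPM in cells and 15.6 and 24.2 CPM in vesicles, a shift of at least 8.15 towards cells on the log2 scale from the floor of 3 counts. Over these 7 genes the label ratio in cells was between 5.10 and 11.4 on the log2 scale, the upper value being that of Gm9287 and resting on its count of 0. In vesicles it was between 0.19 and 0.78. Of the counts of Dis3l2, Snapc3 and R3hdm1, 98.7%, 99.5% and 96.6% were assigned to 1 transcript each, of the nonsense-mediated decay type in the first and of the retained-intron type in the others. Between the most counted transcripts of the 7 genes, taken as 21 pairs, the longest shared run was 15 nt on the same strand and 13 nt on the opposite strand. The genes were picked by a shift that subtracts the label ratio in cells, so a high ratio there is in part built in. The cause of the common order was not tested.

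**Figure D5:**
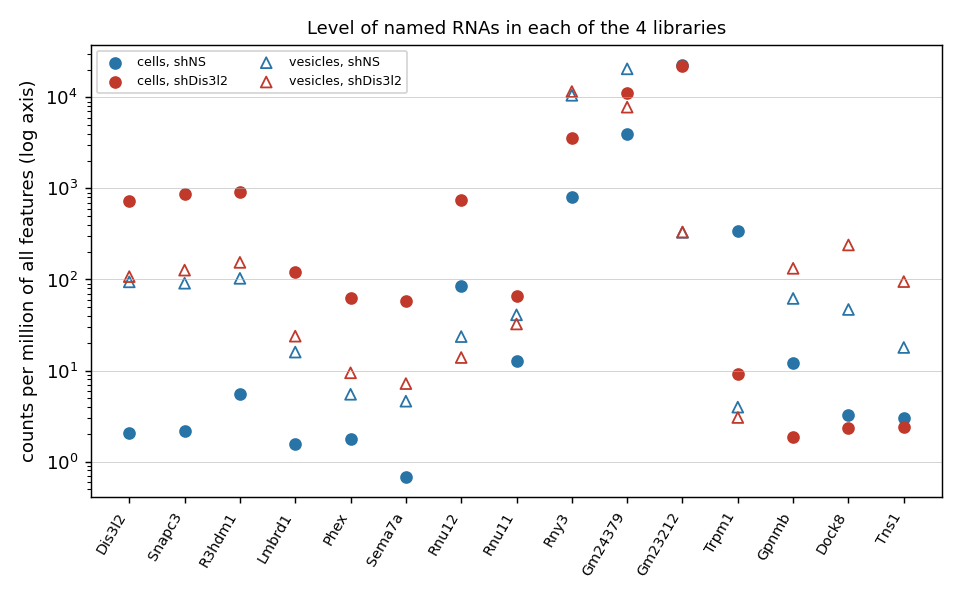
CPM on a log axis in the 4 libraries for 15 named RNAs; filled circles are cells, open triangles vesicles, blue the label shNS and red the label shDis3l2. From Dis3l2 to Sema7a the red circle lies above both triangles and the blue circle below them, while for Dock8 and Tns1 the red triangle stands apart.

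All of the 12 genes with the lowest shifts among those reaching 50 CPM in a library were at least 2-fold higher in cells with the label shDis3l2. The shift subtracts the label ratio in cells, so this is in part built into the choice. Gm9287, Dis3l2, Snapc3, Sema7a, Lmbrd1, Phex and Cdca3 had under 100 counts in the cell library labelled shNS. They passed the count minimum in cells only through the cell library labelled shDis3l2. Gm9287, Sema7a, Lmbrd1 and Phex also reached 50 CPM in that library alone. Beside those above and Rnu12, the 12 genes included the long noncoding RNA gene 1700025D23Rik. It stood at 35.0 and 215 CPM in cells and 28.0 and 6.17 CPM in vesicles, with a shift of -4.79. Cdca3, a gene of mitotic entry, had 4.82 and 93.7 CPM in cells and 367 and 420 CPM in vesicles, and its shift of -4.08 left it on the vesicle side. The gene 2410002F23Rik, whose exons hold Snord88a, followed at -3.37 and the snoRNA Gm24920 at -3.16.

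The 12 highest shifts had another makeup. At least 2-fold higher levels in the vesicle library labelled shDis3l2 were found for 10 of them, and at least 2-fold lower levels in the cell library of that label for 3. Both are directions that a choice by high shift favours. Trpm1, a cation channel gene, had 344 and 9.09 CPM in cells and 3.96 and 3.05 CPM in vesicles, so that its shift of 4.86 (4.31 to 5.42) came from the cell libraries and its ratio stayed on the cell side. Gpnmb, a lysosomal glycoprotein of macrophages, had 12.1 and 1.86 CPM in cells and 61.9 and 133 CPM in vesicles. It was lower in cells and higher in vesicles, a shift of 3.78. Dock8, an exchange factor for Cdc42 in leukocytes, had 3.22 and 2.31 CPM in cells and 46.8 and 239 CPM in vesicles, a shift of 2.83. Tns1, which encodes the adhesion protein tensin, had 2.99 and 2.42 CPM in cells and 17.9 and 94.8 CPM in vesicles, a shift of 2.70. In both the vesicle library labelled shDis3l2 stood above the others. Cd14, a co-receptor for lipopolysaccharide, had 6.10 and 5.10 CPM in cells and 59.1 and 198 CPM in vesicles, a shift of 2.00. The others were the noncoding RNA genes AC132452.2 (3.18) and Gm49767 (2.45), the vomeronasal receptor gene Vmn1r46 (2.32), Fubp1 (2.19), Rassf2 (2.08), Caprin2 (2.06) and Ccdc88c (2.02). Dock8, Tns1, Fubp1, Vmn1r46 and Ccdc88c reached 50 CPM only in the vesicle library labelled shDis3l2. Trpm1 reached it only in the cell library labelled shNS. A high level in those libraries is therefore in part built into the choice of these genes.

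The genes with the most counts included several that contain miRNAs. A read of a miRNA can be assigned to its own hairpin or to the host exon around it. Counts of such hosts can therefore hold miRNA reads, although miRNA-typed transcripts were left out. Mir17hg, the primary transcript of the miR-17-92 cluster, had 22082 and 23548 CPM in cells and 8382 and 3584 CPM in vesicles, a shift of -1.32. Mcm7, a replicative helicase gene whose exon holds Mir25 and Mir93, had 9744 and 14090 CPM in cells and 3384 and 1499 CPM in vesicles, a shift of -1.71. In both the vesicle level was lower with the label shDis3l2. Luc7l3, a gene for a splicing factor with no miRNA or snoRNA gene in its annotated exons, had 6400 and 12001 CPM in cells and 2785 and 2379 CPM in vesicles, a shift of -1.13 that was -0.99, under 2-fold, when scaled to counts outside miRNA. F630028O10Rik, whose exon holds Mir223, and Mir22hg, the host of Mir22, went the other way, at 1.20 and 1.23. Their cell levels with the labels shNS and shDis3l2 were 7745 and 1543 CPM in the first, and 239 and 29.8 CPM in the second. Over the 98 genes whose exon holds a miRNA-typed gene the median shift was -0.02, with 7 up and 16 down. Gm42427, the most abundant RNA of both vesicle libraries among these genes, had 245 and 329 CPM in cells and 56099 and 80606 CPM in vesicles, and its shift of 0.10 turned to -0.11 on the TMM scale and to -0.04 on that of DESeq2. Gm43305, with 15217 and 30607 CPM in vesicles and 71.1 and 104 CPM in cells, had a shift of 0.45.

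Lists of mRNAs by function stayed near the overall median, with exceptions. Of 47 listed RNA decay and tailing genes 9 were measured, with a median of -0.06. The deadenylase subunits Pan2 and Pan3 had shifts of -1.26 and 1.03, and Cnot1, the scaffold of the CCR4-NOT deadenylase, one of -1.23. The decapping enzyme gene Dcp2 stood at 0.89 and the 5′ exonuclease gene Xrn1 at 0.90. For Pan2 the cell level rested on 2.38 and 6.99 CPM, against 49.4 and 60.1 CPM in vesicles. The 3 measured genes for signal recognition particle proteins and La-type binders, Larp1, Larp4 and Srp72, had shifts of 0.47, 0.81 and 0.98 and a median of 0.81.

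Beside the counts of these and the other lists stand the shares over all features that passed the count minimum, 11.9% up and 14.3% down. The 10 measured genes of the NF-kB and inflammatory list had a median of 0.30, with 2 up and 0 down. The transcription factor genes Fos and Junb were up, at 1.69 and 1.35, with Fos at 9.15 and 4.06 CPM in cells and 19.7 and 28.4 CPM in vesicles. Tnf, the gene of tumour necrosis factor, stood at 0.82. The 13 measured macrophage identity genes had a median of -0.25, with 2 up, Gpnmb and Cd14, and 1 down, the lysosomal protease gene Ctsd at -1.0. The 5 measured vesicle biogenesis and marker genes had a median of 0.45, which became -0.15 with a count minimum of 10. In that list Ybx1, an RNA-binding protein of vesicle sorting, stood at -1.21 and Trove2, the Ro protein that binds Y RNAs, at 1.05. The 23 housekeeping and translation genes had a median of -0.46, with 3 down, Ppia, Eef1a1 and Eef1g, and 1 up, Eno1. The 16 measured replication-dependent histone genes had a median of 0.09 and 3 down, led by Hist1h2br at -1.33. The 10 measured nuclear long noncoding RNAs had a median of 0.04 (-0.16 on the TMM scale), with 2 up and 2 down. Among them Malat1 and Neat1 stood at 0.43 and 0.26 and Firre at -1.47. Only 2 members each were measured of the interferon-stimulated genes (Parp14 at 0.12, Rsad2 at 1.46), the RNA sensors (Unc93b1 at 0.26, Myd88 at 0.33) and the epithelial, fibroblast and endothelial markers (Egfl7, whose exon holds Mir126a, at -1.37, and Pecam1 at 0.16). No erythroid or platelet gene passed the count minimum.

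The shift also varied with the annotated length of the most counted transcript. The median was -0.81 for 113 RNAs shorter than 100 nt, -1.63 for 66 from 100 to 200 nt, -0.33 for 80 from 200 to 500 nt, -0.16 for 222 from 500 to 1000 nt and 0.28 for 723 of at least 5000 nt. Within protein-coding genes it ran from -0.31 for 50 genes of 200 to 500 nt to 0.28 for 700 genes of at least 5000 nt. The Spearman correlation with length was 0.28 over all members and 0.16 over protein-coding genes, which are not replicates. With GC content it was -0.02 over all members. With the mean CPM of the 4 libraries it was -0.19 over all members, -0.09 over protein-coding genes and 0.32 over snoRNAs. The median shift was 0.22 for 871 genes under 10 CPM, -0.61 for 113 from 300 to 1000 CPM and -0.31 for 44 of at least 1000 CPM. Which of these features goes with the shift apart from the others was not tested. Reads were 50 nt long, so annotated length is not the length of the RNA that was sequenced. Genes just inside the count minimum, with 100 to 110 counts in cells, had a median shift of 0.23 (233 genes), and those just outside, with 90 to 100, one of 0.24 (290 genes).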

How the data were processed

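Libraries of small RNA (QIAseq miRNA kit, 50 nt reads) came from RAW264.7 cells and their vesicles, per the labels' protocols. Per the submitters' processing notes, cutadapt, Salmon and Novoalign were used, with GRCm38 and mm10 named as builds; for versions, strand settings and the collapsing of reads to molecules, nothing is given in the sources used here. The authors deposited estimated counts for each transcript. Only 6.56% of the values above 0 lie within 0.001 of a whole number. They were not rounded.

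Transcripts were named from GENCODE M21, summed by gene, and scaled to the total of all features with 0.5 counts added. Intervals used the summed 1/(count + 0.5) of the 4 libraries. A called shift is at least 2-fold with an interval that excludes 0. Python 3.11.15 with numpy 2.4.6, pandas 2.3.3 and matplotlib 3.10.9 was used, and R 4.3.3 with edgeR 4.0.16 and DESeq2 1.42.0 for scaling factors only. On simulated counts for the export shift of 2331 genes, all 200 genes changed by 2 or 3 on the log2 scale were called and 0 of 2131 unchanged ones; this covers counting error only.

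Members and lists were chosen with earlier results of these data known. Named genes are the 12 highest and 12 lowest shifts with at least 50 CPM in a library and an interval that excludes 0, the 10 most abundant, up to 10 whose ratio changes side of 1, measured list members and Dis3l2. Lists with fewer than 3 measured members have no median. Alternatives were other scales, pseudocounts, count minimums and treatments of overlapping genes; leaving out genes that share an exon with a snoRNA was added after the data were examined.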

Additional observations from a re-analysis of the deposited data

Results flagged for a closer look

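The export ratio was at least 2-fold on opposite sides of 1 under the labels, with both intervals excluding 0, in 21 genes (0.901%, against 0.915% of all features that passed the count minimum). In 18 it went from the vesicle side with the label shNS to the cell side with the label shDis3l2, and in 3 the other way. With 1 library per group the difference was not tested. The 10 with the greatest difference moved towards the cells. The export shift on the log2 scale was -10.74 for Gm9287 (with 0.5 counts added to a count of 0, which from a floor of 3 counts is at least 8.15 in size), -8.22 for Dis3l2, -8.12 for Snapc3, -6.80 for R3hdm1, -5.73 for Sema7a, -5.67 for Lmbrd1, -4.92 for the snRNA Gm22126, -4.32 for Phex, -3.96 for the snoRNA host Snhg8 and -3.60 for Gm24045, an RNA typed miscellaneous. Snhg8, which holds Snora24, had 2.06 and 45.9 CPM in cells and 8.94 and 12.7 CPM in vesicles, with the labels shNS and shDis3l2, and its shift was -1.68 when overlapping genes were summed. Gm24045 had 1.19 and 6.32 CPM in cells and 5.43 and 2.32 CPM in vesicles.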

How the results depend on the processing

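No paired analysis was possible because each group has 1 library. With TMM factors 184 genes were called up, and the medians were -1.28 for miscellaneous RNAs, -0.27 for rRNA, -0.33 for structured Pol III and RNP RNAs, -2.22 for the list of Rnu genes and -0.16 for nuclear long noncoding RNAs; Gm42427 and CT010467.1 turned to -0.11 and -0.085. With DESeq2 size factors miscellaneous RNAs had -1.20, the Pol III list -0.26, and Gm42427 and CT010467.1 turned to -0.036 and -0.012. Scaled to counts outside miRNA, miscellaneous RNAs had -0.92, and the Pol III list and n-R5-8s1 turned to 0.027 and 0.084. A count minimum of 10 let in 15685 genes, of which 2335 were up (14.9%), 1493 down (9.52%) and 134 changed side. Medians at that minimum were -1.53 for scaRNAs, -1.02 for snoRNA hosts, -0.15 for vesicle markers (reversed) and -1.20 for Cajal body RNAs. A minimum of 1000 left 162 genes with a median of -0.47, 6 up, 54 down and 6 changing side. The medians were then -0.40 for antisense, -0.58 for miscellaneous, -0.47 for protein-coding, -2.04 for snoRNA genes, and -0.30, -1.96, -2.25 and -1.93 for the Pol III, host, C/D and small-subunit lists. Summing overlapping genes gave -1.12 for scaRNAs, -0.74 for hosts, -0.19 for long noncoding and -1.09 for Cajal body RNAs. Without genes that share an exon with a miRNA, miscellaneous RNAs had -1.45, the Pol III list -0.30 and long noncoding RNAs 0.26; without those that share one with a snoRNA, hosts had -0.87. The cause was not tested; the minimums and omissions change which genes enter. Across the settings, 622 recomputed values stayed within the counting interval, for medians that typical of the group (counts within 1.5 times). For named genes 305 stayed, 31 moved beyond it, and 5 whose interval had excluded 0 turned in sign. For list medians 160 stayed, 16 moved beyond it, and 2 larger than it turned in sign. For class medians 124 stayed and 11 moved beyond it. None of the values that left it did so with a pseudocount of 5 or with at least 20 counts required in each library. Medians near 0 also turned in sign within that interval, among them that of all genes. Lower levels, of a few CPM in cells, limit most mRNA shifts.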

Other observations

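The other 11 genes whose export ratio changed side were named after their values were seen. Towards cells these were Galntl6 (-3.53), Amd1 (-3.25), Eif5 (-3.14), Crtc1 (-3.12), Ccdc7a (-2.82), Rnu11 (-2.69), Jmjd6 (-2.64) and Mtmr9 (-2.19). Eif5, a translation initiation factor gene whose exon holds Snora28, had 196 and 1560 counts in cells and 408 and 382 in vesicles, with the labels shNS and shDis3l2. Jmjd6, an oxygenase gene, had 311 and 2076 counts in cells and 614 and 680 in vesicles, so in both the cell libraries carried the difference. Amd1, which encodes the decarboxylase of polyamine synthesis, had 72.0 and 80.8 counts in cells and 280 and 33.7 in vesicles, and there the vesicle libraries did. Towards vesicles were Lmf1 (3.28), Gm38012 (2.28) and Zfp410 (2.20), and Zfp410 had 536 and 187 counts in cells and 237 and 395 in vesicles.

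Of the 2331 genes, 4 had a count of 0 in 1 library. Beside Gm9287, the snoRNA Gm22620 had 0 counts in the vesicle library labelled shDis3l2 and 117 in that labelled shNS, a shift of at least 6.17 towards cells on the log2 scale. Gm24447 and the pseudogene Gm9025 had 0 counts in the vesicle library labelled shNS, and 173 and 240 in that labelled shDis3l2, shifts of at least 5.29 and 6.11 towards vesicles. With these genes at their bounds, the medians of snoRNA, miscellaneous RNA and processed pseudogene members were -1.17, -1.07 and 0.21, the same values as above.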
